A study of Mus musculus with 16 samples.

Results

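Interferon-stimulated genes are the genes that a cell switches on when an interferon binds its receptor, and 34 of them, chosen by symbol, were followed here through the response of mouse macrophages to dexamethasone. All 34 symbols were matched to an Ensembl identifier among the 54532 in each file, and all 34 were expressed highly enough to be tested, at 1 FPKM or more in at least 4 of 16 libraries. FPKM counts the fragments on a gene per kilobase of its exons, scaled by a factor for each library, so that levels can be compared between genes. Bone marrow of FVB/N mice was cultured for 5 to 7 days in medium with 20% fetal bovine serum and 30% L929-conditioned medium, a source of the growth factor that turns marrow cells into bone marrow-derived macrophages. The cultures were wild type or labelled FOXO3-/-, and each genotype received DMSO, the vehicle, or 100 nM dexamethasone for 24 h before RNA was taken, with 4 libraries in each of the 4 groups. Dexamethasone is a synthetic glucocorticoid, and FOXO3 is a forkhead transcription factor that is kept out of the nucleus by growth factor signalling. The labels name no added interferon or microbial stimulus, so the vehicle groups are read here as unstimulated cultures. The labels name neither the deleted part of Foxo3 nor whether libraries came from separate animals, and the spread behind each p-value, taken over the libraries of a group, may be technical in part.

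Type I interferons act on IFNAR1 and IFNAR2, and their kinases phosphorylate STAT proteins, which join IRF9 and bind interferon-stimulated response elements in promoters. Interferon gamma acts on IFNGR1 and IFNGR2 and works through gamma-activated sequences, with IRF1 as a second wave. The products restrict viral RNA (IFIT, OAS and Mx proteins), attack microbial vacuoles (guanylate-binding proteins), sense nucleic acid (Ddx58, Ifih1) and feed the loop back onto itself (Irf7, Stat2, Irf9, Usp18). Resting macrophages are known to hold a low tonic level of these transcripts, and glucocorticoids are known to lower many inflammatory genes.

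The libraries held between 16886745 and 20584573 recovered reads on genes, and the members lay between 0.117 FPKM (Ifi44) and 383 FPKM (Bst2). Foxo3 itself was not lower in the knockout-labelled libraries: with vehicle it had 24.7 ± 1.72 FPKM in wild type and 23.8 ± 0.635 in the knockout label (SD, n = 4 each, two-sided exact permutation test, p = 0.371), and with dexamethasone 23.2 ± 1.07 and 24.5 ± 1.44 (p = 0.171, where 0.0286 is the smallest p possible). Whole-gene levels do not check a genotype whose deleted part is not named, so every genotype difference below is a difference between labels. Of the macrophage markers, Lyz2 lay between 7764 and 12750 FPKM and Csf1r between 488 and 831 over all libraries. Others were lower, with Itgam down to 8.54 and Fcgr1 down to 5.47 FPKM in wild type with dexamethasone. Stromal (fibroblast) transcripts varied: the sum of 11 markers ran from 30.6 to 576 FPKM in wild type with vehicle, 71.7 to 1196 in wild type with dexamethasone, 2.95 to 408 in the knockout label with vehicle and 6.79 to 96.7 in the knockout label with dexamethasone. Col1a1, the collagen gene that leads this list, stood apart from the rest of its group in 3 libraries, at 6.77 FPKM in wild-type vehicle replicate 3, 19.1 in wild-type dexamethasone replicate 4 and 95.8 in knockout-labelled vehicle replicate 4. Markers of other interferon-responding cells were scarce but not all at 0. Summed over a list, they reached at most 0.909 FPKM for natural killer and T cells (8 genes), 0.690 for dendritic cells (6), 4.22 for neutrophils (8, S100a8 up to 3.73, Ly6g at 0 throughout) and 7.23 for B cells (6, mostly Ebf1 and Cd79b). Of the plasmacytoid dendritic cell list Klk1 was at 0 and Siglech at most 0.0898, with Runx2 up to 2.65 and Tcf4 up to 3.997, and Bst2 is on that list as well. In whole cultures such as these, fewer cells of a type and less RNA per cell cannot be told apart.

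Dexamethasone lowered nearly the whole set in both genotypes. In wild type 32 of the 34 genes passed as lower and 0 as higher (limma on log2(FPKM + 1), Benjamini-Hochberg adjusted p under 0.05), where 18.2% of the 11654 genes tested were called lower and 11.9% higher. In the knockout label 30 of 34 passed as lower and 0 as higher, against 24.1% and 15.0% of all genes. The median log2 difference of the members was -1.27 in wild type and -1.07 in the knockout label, and the median over all genes tested was -0.02 and -0.05. The groups did not overlap, every dexamethasone library lying below every vehicle library, for 29 members in wild type (16.5% of all genes) and 31 in the knockout label (23.9%). The 30 members lower in the knockout label were all lower in wild type, 100% of its calls and 93.8% of those of wild type. With 32 and 30 of 34 called, such an overlap was nearly fixed in advance. These comparisons share no library, but they share an estimate of the spread. Macrophage markers moved with dexamethasone as well, 7 of 10 lower and 2 higher in wild type and 6 lower and 3 higher in the knockout label, and their part in the members' fall was not tested. As a percent of the vehicle mean, the median member retained 31.0% of its level in wild type and 41.6% in the knockout label. Under 25% was retained by 13 members in wild type and by 9 in the knockout label.

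**Figure D1:**
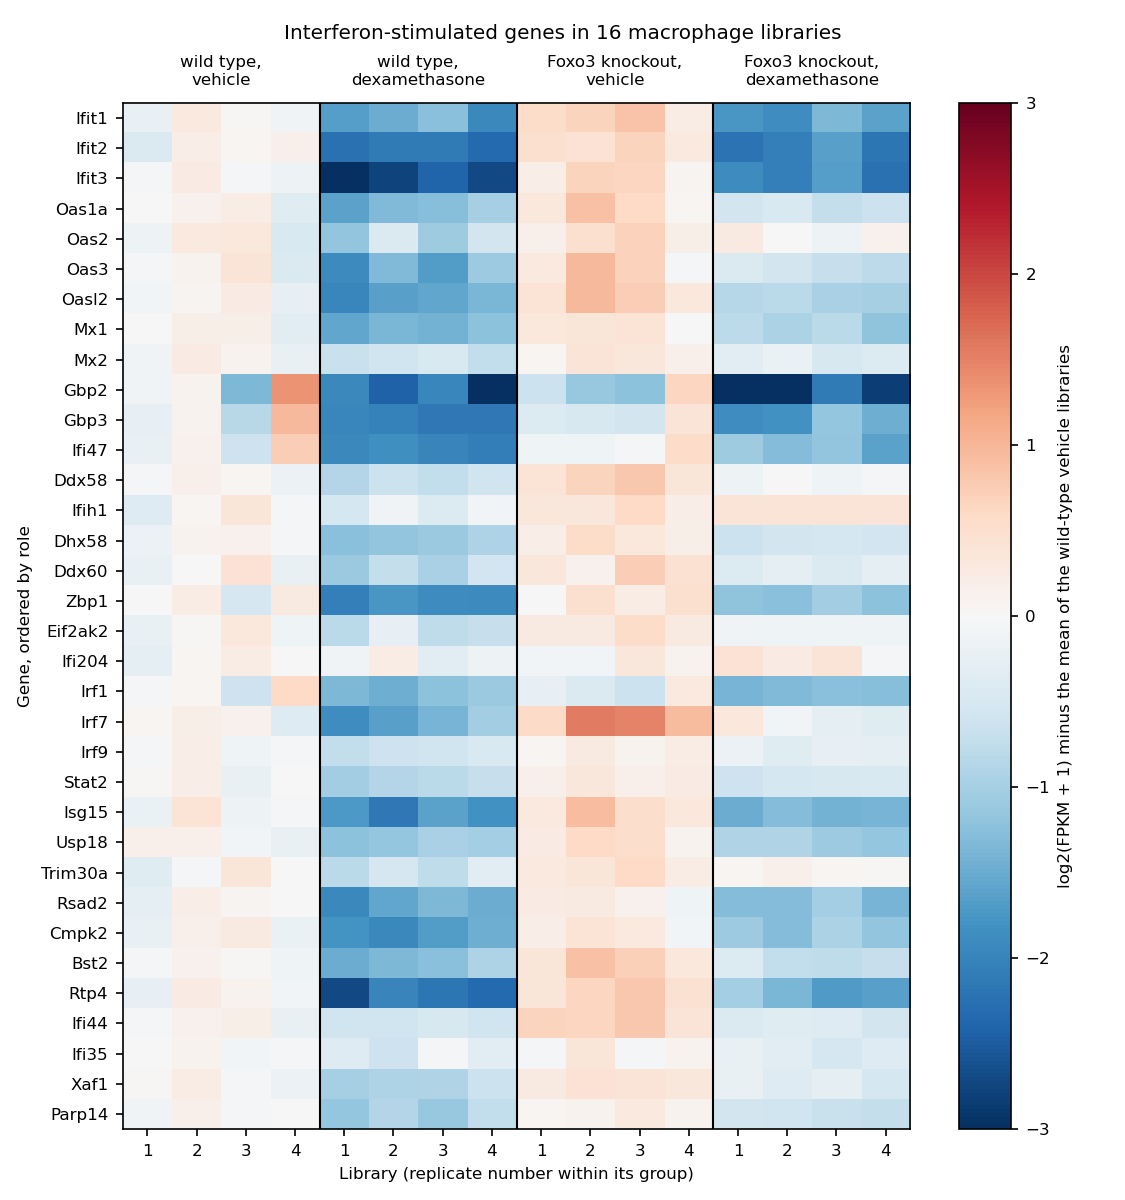
Each row is 1 of the 34 genes and each column 1 of the 16 libraries, ordered by group. Colour gives log2(FPKM + 1) minus the mean of the 4 wild-type vehicle libraries, so blue is lower and red higher: the dexamethasone columns are blue for nearly every gene, with Ifih1 and Ifi204 the palest rows, and the knockout-labelled vehicle columns are mostly pale red.

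The IFIT proteins, which bind viral RNA and its cap, fell furthest by the median of a family (-2.20 in wild type and -2.35 in the knockout label, log2), with all 3 members lower in both genotypes. Ifit3 read 11.5, 14.2, 11.6 and 10.5 FPKM in the wild-type vehicle libraries and 0.627, 0.880, 1.45 and 0.991 with dexamethasone. In the knockout label it read 13.9, 19.5, 19.0 and 12.5 with vehicle and 2.49, 2.12, 3.13 and 1.73 with dexamethasone. No dexamethasone library came near a vehicle library, and the fall was 2.71 ± 0.16 (SE) on the log2(FPKM + 1) scale in wild type (adjusted p = 3.65e-08) and 2.35 ± 0.16 in the knockout label (8.61e-08). Ifit2 retained 11.6% of its vehicle level in wild type and 10.8% in the knockout label. Ifit1, with 3.87 ± 0.756 and 6.25 ± 1.29 FPKM with vehicle in wild type and the knockout label (SD, n = 4), came down to 0.628 ± 0.316 and 0.571 ± 0.249. Its fall is no independent support, since it needed vehicle libraries to pass the expression filter. Its vehicle levels did not pass as different between the labels (adjusted p = 0.0687). Part of each value may belong to a near copy: 51.2% of the 50-base stretches of Ifit3 transcripts also occur in Ifit3b, and 7.06% of those of Ifit1 in Ifit1bl2.

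Guanylate-binding and immunity-related GTPases, which assemble on the vacuoles of microbes inside a cell, had medians of -2.07 and -1.35 and a wide spread between vehicle libraries, with all 3 members lower in both genotypes. Gbp2 read 37.5, 43.9, 15.4 and 106 FPKM in wild type with vehicle, then 9.83, 6.73, 9.76 and 4.10 with dexamethasone. The knockout-labelled libraries read 25.7, 17.9, 16.7 and 64.3, then 3.18, 4.17, 8.56 and 4.86. The groups did not overlap in either genotype, and the log2 difference was -2.34 ± 0.51 (SE) and -2.23 ± 0.51 (adjusted p = 0.00309 and 0.00313). Gbp3 retained 9.08% in wild type and 26.4% in the knockout label, and Ifi47, also called IRG47, 21.3% and 36.5%. The high vehicle libraries of this family were also high in stromal transcripts, which is described with the genotype differences.

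The promoters of the members that fell most, averaged over both genotypes (Ifit3, Ifit2 and Gbp2), and of Ifih1, which was not called in either, are shown to set the interferon-stimulated response element beside the response. Each line gives the 160 bases that end just before the RefSeq transcription start, on the coding strand 5′ to 3′ and from GRCm38.p6, with capitals for matches to the element's core on either strand. They lie at chr19:34583369-34583528 (+ strand), chr19:34550534-34550693 (+), chr3:142620503-142620662 (+) and chr2:62646256-62646415 (- strand), in that order.
Ifit3: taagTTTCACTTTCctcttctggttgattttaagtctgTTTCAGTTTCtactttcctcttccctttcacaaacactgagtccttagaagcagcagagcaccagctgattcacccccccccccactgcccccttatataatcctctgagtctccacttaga
Ifit2: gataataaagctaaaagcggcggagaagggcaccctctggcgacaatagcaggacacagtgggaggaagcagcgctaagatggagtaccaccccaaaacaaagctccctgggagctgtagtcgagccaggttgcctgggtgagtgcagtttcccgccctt
Gbp2: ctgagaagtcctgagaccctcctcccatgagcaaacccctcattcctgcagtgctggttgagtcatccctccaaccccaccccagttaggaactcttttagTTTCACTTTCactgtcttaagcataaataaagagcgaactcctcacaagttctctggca
Ifih1: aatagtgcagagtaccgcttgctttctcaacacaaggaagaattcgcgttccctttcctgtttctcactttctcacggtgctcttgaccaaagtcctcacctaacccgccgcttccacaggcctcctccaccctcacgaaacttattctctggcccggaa
The core searched was GAAANNGAAA, with N for any base, over windows from 250 bases before to 50 after the start. The Ifit3 window holds it 2 times, from 156 and 122 bases before the start, and the Gbp2 window once, at 59. Ifih1 holds 1 copy that begins at base 33 after the start, outside the stretch shown, and neither of the 2 Ifit2 entries in the table holds these letters. Of the 25 members with a promoter in the table (9 had none), 15 held the core in their first entry, 60.0%, where 3.49% of the first entries of 27025 symbols did. The 15 had a median log2 response of -1.30 in wild type and -1.08 in the knockout label, and the 10 without it -1.39 and -1.15. The core of the gamma-activated sequence, TTCNNNGAA, which reads the same on both strands, was found in 6 of 25 (24.0%) and in 8.47% of all. These matches describe letters and are not measured binding sites.

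**Figure D2:**
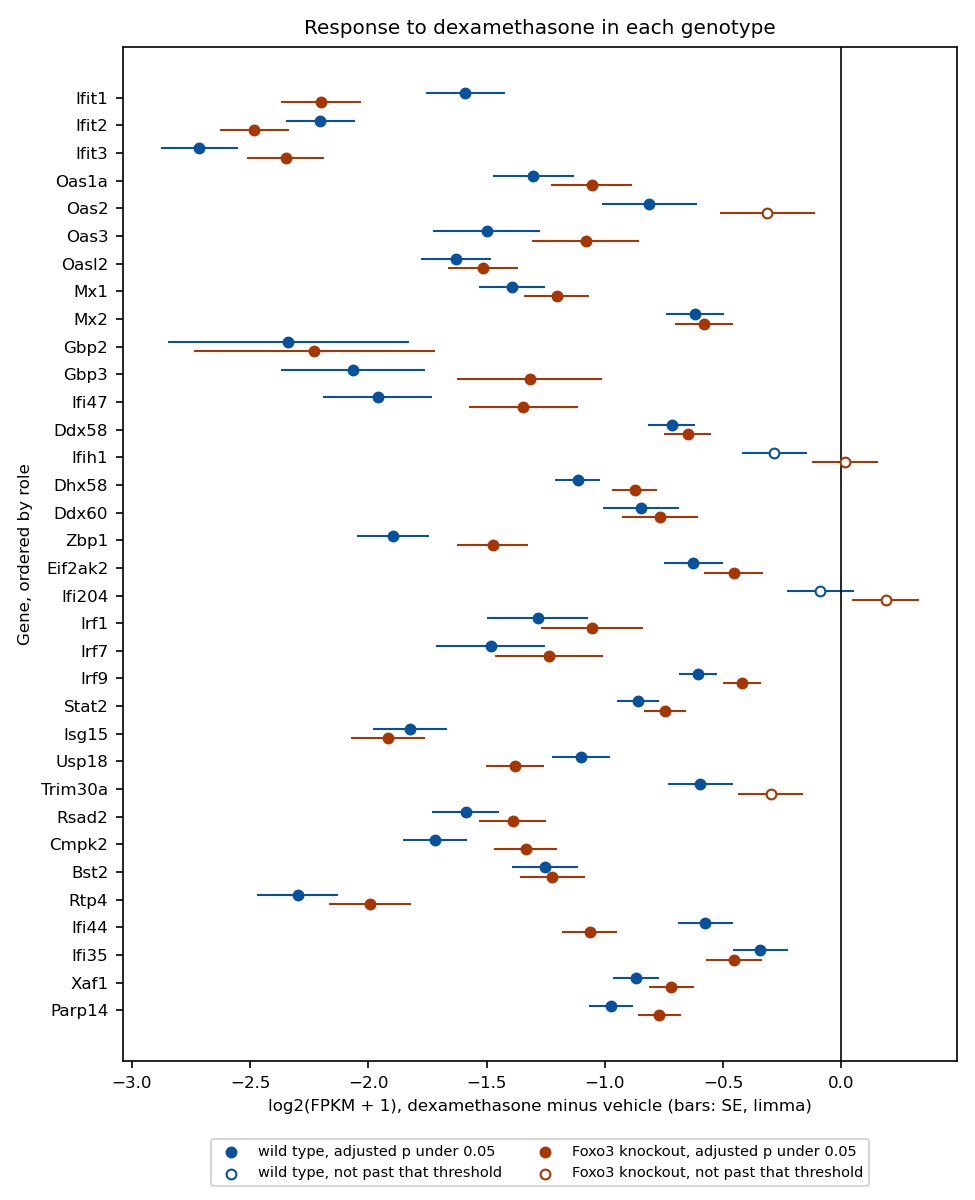
Each gene has its wild-type response (blue) and its knockout-labelled response (brown), as the difference in log2(FPKM + 1) between dexamethasone and vehicle with the SE from limma. Filled points passed an adjusted p under 0.05: all points of Ifih1 and Ifi204 are open, as are the knockout-labelled points of Oas2 and Trim30a, and every filled point lies below 0.

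Oligoadenylate synthetases make the 2′-5′ linked messenger that activates RNase L. All 4 were lower with dexamethasone in wild type and 3 of 4 in the knockout label. Oasl2, a member named for its likeness to the family, read 8.87, 10.0, 11.4 and 7.83 FPKM in wild type with vehicle and 1.71, 2.39, 2.54 and 3.03 with dexamethasone. In the knockout label it read 12.9, 19.5, 16.4 and 12.1, then 4.77, 4.98, 4.36 and 4.22, so the groups were apart in both genotypes (log2 difference -1.63 ± 0.15 and -1.51 ± 0.15, SE). Oas1a retained 39.1% and 46.2% and Oas3 27.1% and 40.9%. The Oas1a values are uncertain, since 57.6% of its 50-base stretches also occur in Oas1g. Mx1 and Mx2 belong to a family of dynamin-like GTPases that trap viral particles, and the annotation lists Mx2 as a polymorphic pseudogene. Both passed as lower in both genotypes from low levels. Mx1 went from 2.58 ± 0.590 to 0.354 ± 0.122 FPKM in wild type, and in the knockout label from 3.29 ± 0.535 to 0.864 ± 0.241 (SD, n = 4). Mx2 passed the expression filter through vehicle libraries only, the group where it is high, so its call is no independent support. It rested on few reads, 12 to 31 in each wild-type dexamethasone library.

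Among the transcription factors all 4 members passed as lower in both genotypes. Irf7, the factor that amplifies type I interferon production, read 15.3, 16.7, 16.1 and 11.0 FPKM in wild type with vehicle and 3.27, 4.05, 4.89 and 6.58 with dexamethasone. The knockout-labelled libraries read 22.1, 44.6, 42.5 and 28.9, then 18.4, 13.7, 11.8 and 11.2. Dexamethasone thus left Irf7 in the knockout label, at 13.8 ± 3.25 (SD, n = 4), near the wild-type vehicle level of 14.8 ± 2.59. The log2 response was -1.48 ± 0.23 and -1.24 ± 0.23 (SE). Irf1, the gamma-responsive factor, retained 38.0% and 45.2%. Stat2 and Irf9, parts of the complex that binds the response element, fell less: Stat2 retained 52.3% and 57.5%, and Irf9 63.0% and 72.9%. In the libraries with less than 50 FPKM of Col1a1, 1 of them wild type in each treatment, the wild-type calls of Irf1 (log2 difference -0.49 against -1.28, adjusted p = 0.0717), Irf7 (-1.17, 0.109) and Irf9 (-0.34, 0.118) were lost.

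Of the ubiquitin-like system, Isg15, the modifier that is joined to newly made proteins, retained 23.4% in wild type and 22.8% in the knockout label. Usp18, which removes ISG15 and damps the receptor, retained 29.6% and 24.1%. Rsad2 (viperin) and Cmpk2, neighbours that make and supply an antiviral nucleotide, retained 13.9% and 18.7% in wild type and 22.1% and 30.9% in the knockout label. Bst2 (tetherin), which holds budding virus at the membrane, was the most abundant member, at 208 ± 15.95 and 87.3 ± 15.2 FPKM in wild type and 314 ± 60.1 and 133 ± 16.3 in the knockout label. Rtp4, a receptor chaperone, went from 16.7 ± 2.57 to 2.64 ± 0.750 FPKM in wild type, and in the knockout label from 25.2 ± 3.64 to 5.66 ± 1.48. Xaf1 and Parp14 retained 41.8% and 49.0% in wild type and 52.7% and 56.9% in the knockout label. Ifi35 retained most among the members called in wild type, 77.6% (log2 difference -0.34 ± 0.12, SE, adjusted p = 0.0389), and the call was lost, with adjusted p up to 0.120, when any wild-type library but dexamethasone replicate 3 was left out, and when knockout-labelled dexamethasone replicate 2 was.

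Sensors of nucleic acid fell least by median (-0.72 and -0.65, log2), with 5 of 7 members lower in each genotype. Zbp1, a sensor of Z-form RNA and DNA, was the exception in size, at 17.6% retained in wild type and 29.5% in the knockout label. Dhx58 (LGP2) retained 41.4% and 51.1%, Ddx60 34.6% and 45.1%, Ddx58 (RIG-I) 56.8% and 60.8%, and Eif2ak2 (PKR) 59.7% and 69.5%. Ifih1 and Ifi204 did not pass in either genotype, and so resisted suppression by the definition used here, which is that a member did not pass as lower.

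Ifih1 encodes MDA5, the sensor of long double-stranded RNA. It read 1.995, 3.08, 4.02 and 2.86 FPKM in wild type with vehicle and 1.71, 2.64, 1.95 and 2.70 with dexamethasone, groups that overlapped. The knockout-labelled libraries read 3.99, 3.99, 4.92 and 3.49, then 4.15, 4.10, 4.09 and 4.13. The log2 difference was -0.28 (95% interval -0.58 to 0.01, adjusted p = 0.145) in wild type and 0.01 (-0.28 to 0.31, adjusted p = 0.955) in the knockout label. In wild type the call appeared when vehicle replicate 1 was left out (log2 difference -0.41, adjusted p = 0.0265) and with library quality weights (-0.34, 0.0255).

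Ifi204 belongs to the p200 family, which includes DNA-binding sensors. It read 3.82, 5.07, 5.85 and 4.81 FPKM in wild type with vehicle and 4.45, 5.82, 3.65 and 4.24 with dexamethasone, and 4.51, 4.53, 6.42 and 5.26, then 6.88, 5.89, 6.62 and 4.74, in the knockout label. The groups overlapped in both genotypes, with log2 differences of -0.09 (95% interval -0.39 to 0.21) and 0.19 (-0.12 to 0.49). Its value is uncertain, since 20.0% of its 50-base stretches occur in other genes, 14.8% in Ifi211. Oas2 and Trim30a missed the call in the knockout label and passed in wild type, and neither differed in response between the labels by the test below. Oas2 read 8.27, 11.6, 11.7 and 6.48 FPKM and then 3.51, 6.56, 3.87 and 6.02 in wild type, against 10.4, 13.3, 15.6 and 10.6 and then 11.3, 9.33, 8.25 and 10.1 in the knockout label. Its log2 difference was -0.81 (-1.24 to -0.38) in wild type and -0.31 (-0.74 to 0.11, adjusted p = 0.237) in the knockout label, and the difference between these responses did not pass (0.50 ± 0.28, SE, adjusted p = 0.523).

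Trim30a, which in the mouse damps Toll-like receptor signalling, was 64.0% retained in wild type and 80.2% in the knockout label. All 4 knockout-labelled dexamethasone libraries, 20.5 to 22.1 FPKM, lay below the 4 vehicle libraries, 23.4 to 30.6, although the test missed the threshold (log2 difference -0.30 ± 0.14, SE, adjusted p = 0.101). The difference between its responses did not pass (0.30 ± 0.19, SE, adjusted p = 0.576). It passed in 5 alternative fits, among them the fit of the knockout-labelled libraries alone (adjusted p = 0.0180).

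The test of the difference between the responses called 0 members, where 0.129% of all genes were called in either direction. At an unadjusted p under 0.05 it gave 2 members, Ifi44 and Ifit1, with estimates of -0.49 ± 0.16 and -0.61 ± 0.24 (SE, adjusted p = 0.262 and 0.322). Ifi44 passed the expression filter only through the knockout-labelled vehicle libraries, where it is highest, so nothing is read from its estimate. A linear model on the recovered reads (voom) also called 0. Weighting libraries by quality called 2 lower and 4 higher of 34, where it called 11.9% of all genes, and leaving out the 3 libraries that stood apart in Col1a1 called 1 lower and 1 higher of 33, where it called 6.26% of all genes, a share near that of the members. By estimate, 28 of 34 members fell less in the knockout label or did not fall there. The estimated difference between the responses was above 0 for these 28 and for 5390 of the 11654 genes tested. The 95% intervals were wide against these differences, for instance -0.45 to 0.94 for Irf7 and -1.43 to 1.65 for Gbp2, so like and unlike responses could not be told from each other at this spread.

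With vehicle alone, the knockout label had higher levels of 6 members and lower levels of 0, against 3.37% of all genes called higher and 1.30% lower. The 6 were Irf7, Ifi44, Oasl2, Ddx58, Bst2 and Xaf1, and the median over all 34 was 0.36 in log2 against 0.04 over all genes. Irf7 differed most, at 34.5 ± 10.8 FPKM against 14.8 ± 2.59 in wild type (SD, n = 4, log2 difference 1.14 ± 0.23, SE, adjusted p = 0.0106). Ddx58 was at 15.1 ± 2.36 against 9.87 ± 1.04 (0.56 ± 0.10, adjusted p = 0.00408). Ifi44, a cytoplasmic interferon-induced protein, read 0.625, 0.846, 0.916 and 0.456 FPKM in wild type and 1.72, 1.66, 1.97 and 1.24 in the knockout label. It passed the expression filter through the knockout-labelled libraries only, so its call is no independent support. For 9 members every knockout-labelled library lay above every wild-type library (7.66% of all genes). By estimate 31 of 34 members were higher, the exceptions being Gbp2, Gbp3 and Irf1, as were 7001 of the 11654 genes tested.

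This count moved with single libraries. It was 11 without wild-type vehicle replicate 3 (8.90% of all genes called higher) and 11 without knockout-labelled vehicle replicate 4 (7.81%). These are the libraries of that treatment that stood apart in Col1a1. The count fell to 3 without wild-type vehicle replicate 1 or 4 (1.52% and 1.78% of all genes). It fell to 2 without knockout-labelled vehicle replicate 2 or 3 (1.91% and 1.62%). Of the 6, Xaf1 lost its call in 9 of the fits that left out 1 library (adjusted p up to 0.135). Bst2 and Oasl2 lost theirs in 5 each (up to 0.0972 and 0.101), and Irf7 and Ddx58 in 0. Without the 3 libraries that stood apart, 19 of the 33 members tested were higher and 3 lower, in a fit that called 21.2% of all genes higher and 13.0% lower, so the 3 lower calls are no more than the share of all genes. They were Irf1, Gbp2 (log2 difference -1.45, adjusted p = 0.00767) and Gbp3 (-0.76, 0.0364). With a stromal score as a covariate 2 of the 6, Ddx58 and Ifi44, kept the call, where 1.77% of all genes were called higher. Fitting the vehicle groups by themselves left 0, where 1.42% of all genes were called higher. With the covariate, Irf7 was higher by 0.81 in log2 (adjusted p = 0.0525).

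With dexamethasone, the knockout label was higher in 22 members and lower in 0, where 14.3% of all genes were called higher and 12.4% lower. The median was 0.50 in log2 over the 34 members and 0.03 over all genes, and for 24 members the groups did not overlap (16.3% of all genes). All 4 oligoadenylate synthetases and 6 of the 7 sensors passed, as did Irf7, Irf9 and Stat2. The calls of Ifi47, Ddx60, Mx1, Parp14 and Stat2 were fragile. Ifi47 (adjusted p = 0.0438) was lost in 10 and Ddx60 (0.0342) in 6 of the fits that left out 1 library. Their adjusted p there reached 0.114 and 0.111. Mx1 was lost in 5 of these fits (adjusted p up to 0.0873) and Parp14 in 3 (up to 0.0622). Stat2 (0.0155) was lost without wild-type dexamethasone replicate 1 (0.0584). Ifi47 was also lost with no filter, with median-ratio scaling, with voom and with a pseudocount of 5 FPKM. Irf7 was at 13.8 ± 3.25 FPKM against 4.70 ± 1.42 (log2 difference 1.38 ± 0.23, SE, adjusted p = 0.00113), and Rtp4 at 5.66 ± 1.48 against 2.64 ± 0.750 (0.87 ± 0.17, 0.00347). Ifih1, not called with dexamethasone in either genotype, was at 4.12 ± 0.0289 against 2.25 ± 0.494 (0.67 ± 0.14, 0.00472), with every knockout-labelled library above every wild-type one. Ifit1, Irf1, Ifi35 and Usp18 were at 90.9%, 97.5%, 97.6% and 113% of the wild-type mean and did not pass. Of the 6 members higher with vehicle, 5 were also higher with dexamethasone, all but Ifi44, where 22 of the 34 passed. These comparisons share no library, but they share an estimate of the spread.

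**Figure D3:**
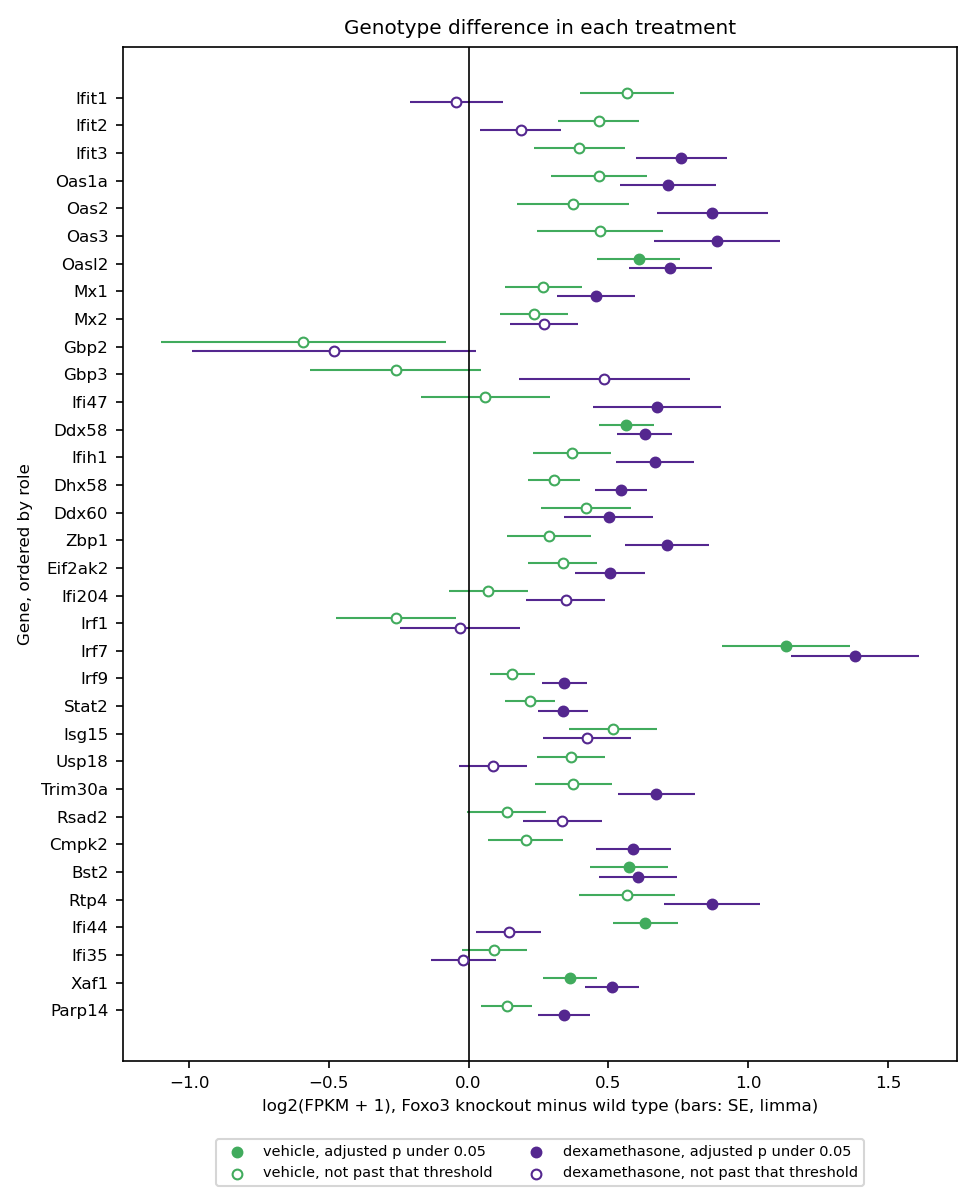
Each gene has the difference in log2(FPKM + 1) between the knockout label and wild type with vehicle (green) and with dexamethasone (purple), with the SE from limma. Filled points passed an adjusted p under 0.05: 6 green and 22 purple points are filled, all of them above 0, with Irf7 farthest to the right.

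Stromal transcripts moved with the genotype label, and their part in these differences was not tested. Of the 9 stromal markers tested, all 9 were lower by estimate in the knockout label with vehicle and 0 passed, and 8 passed as lower with dexamethasone (median log2 difference -2.22 and -3.37). Macrophage markers moved too: 1 of 10 was called higher in the knockout label with vehicle and 5 of 10 with dexamethasone, and Adgre1 (F4/80) read 210 to 472 FPKM in wild type and 662 to 792 in the knockout label with dexamethasone. Cd79b, from the B cell list, passed as higher in the knockout label with vehicle and with dexamethasone, at up to 4.46 FPKM. With the stromal score as a covariate, 6 of the 22 members higher with dexamethasone kept their call (Irf7, Ddx58, Dhx58, Zbp1, Xaf1 and the fragile Ifi47) and Gbp3 joined them, where 3.96% of all genes were called higher. Only 9 libraries had less than 50 FPKM of Col1a1, 1 of them wild type in each treatment, which was taken to vary as the others do. There the median difference of the members was 0.39 with dexamethasone and 0.34 with vehicle. Calls are not counted for that fit, with 1 wild-type library in each treatment. Wild-type dexamethasone replicate 4, at 19.1 FPKM of Col1a1, can be set beside the knockout-labelled dexamethasone libraries at 1.18, 1.20, 15.0 and 25.5. It lay below all 4 of them in 30 of 34 members, against 29.3% of all genes tested, and above all 4 in 1, Irf1, against 31.8%: its Irf7 was 6.58 FPKM against 11.2 to 18.4, and its Bst2 108 against 122 to 157. With vehicle, wild-type replicate 3 (Col1a1 6.77) lay below knockout-labelled replicates 1 to 3 (4.76, 0.506 and 0.395) in 24 members and above them in 0, against 34.4% and 23.8% of all genes.

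Within the vehicle groups, members stood in different orders in the libraries that stood apart in Col1a1. Gbp2, Gbp3, Ifi47 and Irf1 were lowest in wild-type replicate 3, the wild-type library with least Col1a1. They were highest in knockout-labelled replicate 4, the one of its group with most. Of all genes tested 18.1% showed this order, so 4 of 34 members is no more than that share. Gbp2 in wild-type replicate 3 stood at 0.247 times the mean of the other 3 libraries, and in knockout-labelled replicate 4 at 3.20 times. For Irf1 these ratios were 0.544 and 1.68, and for Ifi47 0.522 and 1.60. Iigp1 and Cxcl9, typical targets of interferon gamma that were chosen here after their values were seen, did the same, at 1.22 and 0.269 FPKM in wild-type replicate 3 and 17.2 and 2.28 in knockout-labelled replicate 4. Another 16 members, among them Ifit1, Oas3, Bst2 and Ifi44, went the other way in the knockout label and were lowest in replicate 4, as 36.0% of all genes were: Oas3 stood there at 0.566 times the mean of the other 3. Irf7 in that library was within the range of the other 3, at 28.9 FPKM. These are orders of single libraries, with no test, and neither order is read as particular to the members.

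**Figure D4:**
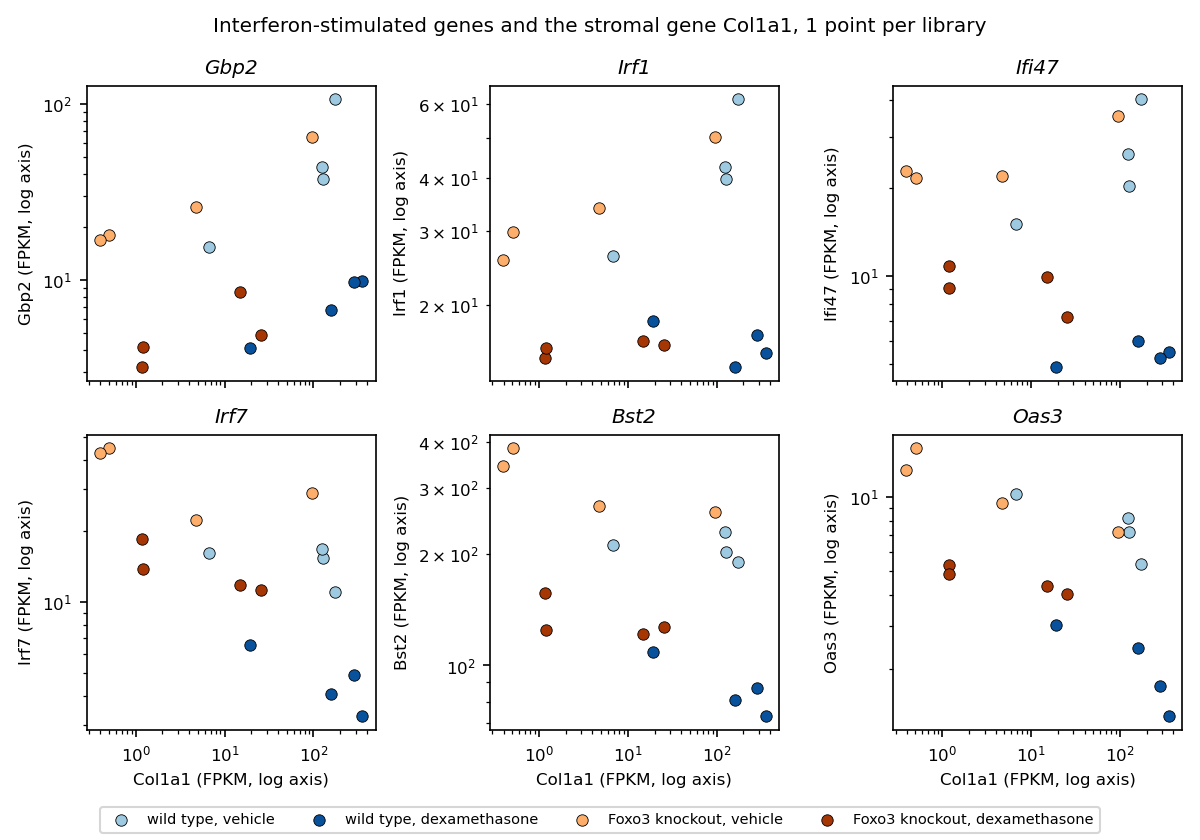
Each point is 1 library, with Col1a1 on the horizontal and the member on the vertical axis, both in FPKM on log axes and coloured by group. Among vehicle libraries Gbp2 and Irf1 (top row) are highest where Col1a1 is near or above 95.8 FPKM, and with dexamethasone wild-type Irf7, Bst2 and Oas3 (bottom row) lie below the knockout label, with the wild-type library at 19.1 FPKM of Col1a1 nearest to it.

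Upstream of the members, transcripts of the interferons themselves were scarcely seen. Of 7 ligand genes, Ifnb1, Ifna4, Ifna2, Ifnl2 and Ifnl3 were listed at 0 in all 16 libraries, Ifng had 0.0417 FPKM in 1 library and Ifna5 0.1002 in 1. Receptors changed in both directions with dexamethasone, with 3 of 5 tested lower and 1 higher in each genotype. Of all genes tested, 18.2% were lower and 11.9% higher in wild type, and 24.1% and 15.0% in the knockout label. Ifnar1 went from 32.2 to 22.9 FPKM in wild type, and in the knockout label from 35.9 to 23.3 (log2 difference -0.47 ± 0.06 and -0.60 ± 0.06, SE), and Ifngr2 from 39.1 to 25.5 and from 47.5 to 29.3. Ifngr1, the chain that binds interferon gamma, rose from 69.7 to 116 and from 77.4 to 144 FPKM (0.72 ± 0.07 and 0.88 ± 0.07).

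Of 12 genes of receptor signalling and its inhibitors, 3 were lower and 3 higher with dexamethasone in wild type, and 4 and 3 in the knockout label. The shares of all genes were 18.2% and 11.9% in wild type, and 24.1% and 15.0% in the knockout label. The inhibitors Ptpn6 (SHP-1) and Socs1 were lower in both genotypes: Ptpn6 went from 118 to 60.2 FPKM in wild type (log2 difference -0.98 ± 0.14, SE), and in the knockout label from 178 to 81.9 (-1.10 ± 0.14). Socs1 passed the expression filter through vehicle libraries only, so its fall is no independent support. Jak1, a receptor kinase, and Pias1, an inhibitor of STAT binding to DNA, were higher in both genotypes.

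Sensors and adaptors that switch on interferon genes were mixed: of 19, 8 were lower and 1 higher with dexamethasone in wild type, and 4 and 2 in the knockout label. The shares of all genes were 18.2% and 11.9% in wild type. They were 24.1% and 15.0% in the knockout label, where the list did not exceed them. Tlr7, the endosomal receptor for single-stranded RNA, rose from 40.0 to 100.8 FPKM in wild type, and in the knockout label from 37.7 to 111 (log2 difference 1.31 ± 0.16 and 1.53 ± 0.16, SE), against the direction of the members. Tlr9, the receptor for CpG DNA, fell from 15.6 to 9.42 and from 26.7 to 16.2, and it was higher in the knockout label in both treatments (0.73 ± 0.16 and 0.72 ± 0.16, adjusted p = 0.0151 and 0.00601), as was its adaptor Myd88. Of the list, 2 genes were called higher in the knockout label with vehicle and 6 with dexamethasone, against 3.37% and 14.3% of all genes.

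Other interferon-induced genes outside the 34 went the same way. Beside the counts that follow, 18.2% of all genes were lower and 11.9% higher in wild type, and 24.1% and 15.0% in the knockout label. Of 9 further GTPases tested out of 15, 8 were lower with dexamethasone in wild type and 7 in the knockout label, with 0 higher in either. Gbp9 went from 5.90 to 0.434 FPKM in wild type, and in the knockout label from 7.77 to 1.82. Igtp (IRGM3) was at 24.05 and 5.43 FPKM in wild type, and at 21.01 and 8.94 in the knockout label. Of 61 further interferon-stimulated genes tested out of 70, 40 were lower and 4 higher with dexamethasone in wild type and 34 and 4 in the knockout label, with a median log2 difference of -0.54 and -0.34. Fcgr1, the high-affinity IgG receptor CD64 and also a macrophage marker, showed the smallest adjusted p of that list in wild type and went from 54.9 to 7.32 FPKM, and from 62.7 to 12.5 in the knockout label. Cxcl10, the interferon-induced chemokine, went from 0.864 to 0.0116 and from 1.34 to 0.0577. It passed the expression filter through vehicle libraries only, so its fall is no independent support.

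Between the labels this longer list had 7 of 61 genes higher and 0 lower with vehicle, and 30 higher and 0 lower with dexamethasone (median log2 difference 0.23 and 0.34). Of all genes, 3.37% were called higher with vehicle and 14.3% with dexamethasone. Ms4a4c, a membrane protein of the MS4A family, differed most by adjusted p with dexamethasone, at 11.9 FPKM in the knockout label and 1.76 in wild type (log2 difference 2.27 ± 0.19, SE). With vehicle it stood at 5.10 and 1.99 FPKM, and it rose with dexamethasone in the knockout label (1.09 ± 0.19, adjusted p = 0.000409) but did not pass in wild type (-0.15 ± 0.19). The test of the difference between the responses called 0 of the 61 genes, so none is claimed for Ms4a4c. Lgals9 and Oasl1 were higher in the knockout label with both treatments. Oasl1 passed the expression filter through knockout-labelled libraries only, so its calls are no independent support. Sp100, Sp110 and Ifi207 passed with dexamethasone, with Ifi207 at 34.6 FPKM against 20.2 (0.76 ± 0.09, adjusted p = 0.000132).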

How the data were processed

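The authors deposited 1 table of FPKM per library, and per the submitters' processing notes DESeq2, HTSeq 0.6.1, TopHat2 2.0.12 and Bowtie2 2.2.3 were used with GRCm38 and mm10. Each tool's role and the strand setting: not given in the sources used here, so reads of overlapping or antisense genes cannot be told apart. GENCODE M21 gave gene names, coordinates and lengths of exons, and holds 54495 of the 54532 identifiers. The members and gene lists were chosen with earlier results of these data known.

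FPKM is not a count: log2(FPKM + 1) was fitted with limma 3.58.1 (R 4.3.3, intensity trend) over the 11654 genes that reached 1 FPKM in 4 or more libraries, as 4 group means, two-sided, with p adjusted over all genes within each of 5 comparisons. The pseudocount of 1 FPKM understates changes of low genes. Exon lengths gave whole reads, within 0.05 reads, for 97.8% to 98.1% of values under 200 reads, and these went into voom as an alternative. The library scale recovered from the FPKM did not follow these reads. It was 16568784 against 20496255 reads on genes in knockout-labelled vehicle replicate 2, and 19544027 against 19196721 in wild-type dexamethasone replicate 2. Its part in the results with voom was not tested. Libraries of a group differed by at least 6.84 times sampling noise (chi-square per gene), so each counted as 1 replicate. Every member may be named. Of the pathway lists, the first 3 genes measured and up to 4 called genes with the smallest adjusted p in each comparison may be. Other fits (pseudocount, filter, scaling, weights, block, covariate, libraries left out, voom) are in the closing section. Promoters are from RefSeq. Some genes of these lists are not reported here.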

Additional observations from a re-analysis of the deposited data

Results flagged for a closer look

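In 7 of 136 combinations of a member and a group of 4, 1 library lay far from the other 3 by Dixon's ratio of gap to range at its critical value for 4, and chance flags about 1 group in 20. Gbp3 and Ifi47 were high in knockout-labelled vehicle replicate 4, at 7.64 FPKM against 3.51 to 3.96 and at 35.4 against 21.6 to 23.0, and Col1a1 was also high in that library (95.8 FPKM). Eif2ak2 stood at 10.1 FPKM in knockout-labelled vehicle replicate 3 against 8.14 to 8.17, and at 6.10 in knockout-labelled dexamethasone replicate 1 against 5.95 to 5.97. Bst2 was at 157 FPKM in the same dexamethasone replicate 1 against 122 to 127. Trim30a was at 22.1 FPKM in knockout-labelled dexamethasone replicate 2 against 20.5 to 20.7, a gap that is wide only because the other 3 nearly coincide. Ifi44 was at 0.210 FPKM in wild-type dexamethasone replicate 3 against 0.117 to 0.122.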

How the results depend on the processing

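The lower calls with dexamethasone stayed within 1.5 times of 32 and 30 in every fit run (21 to 33, the lowest at the filter of 5 FPKM, which tests fewer members). Calls higher in the knockout label with vehicle, 6, became 3 with no filter, 18 (and 2 lower) with library weights and 0 with only the groups compared. They became 2 with the stromal covariate and 19 (and 3 lower) without the 3 libraries apart in Col1a1. With 1 library left out they ran from 2 to 11. The share of all genes called higher moved too, from 3.37% to 26.48% with weights, where 15.05% were called lower. It was 0.936% with no filter, 1.42% with only the groups compared and 1.77% with the covariate. Without the 3 libraries it was 21.2%, with 13.0% called lower. With dexamethasone the 22 became 7 with the covariate. The limit of 50 FPKM of Col1a1 was chosen after seeing the data. The fit under that limit left 1 wild-type library in each treatment, so its counts are not given. For the difference between responses, weights gave 2 lower and 4 higher (11.9% of all genes called), and leaving out the 3 libraries 1 and 1 (6.26% of all genes). The causes were not tested.

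Single members changed sign only where the main value was not called, as log2 differences. Knockout label against wild type with vehicle: Ifi47 -0.00185 (median-ratio scaling), -0.21 (weights), -0.31 (without the 3) and -0.0068 (voom); Zbp1 -0.0178 and Ifi35 -0.0293 (weights). The covariate gave Gbp2 0.44, Gbp3 0.25, Ifi204 -0.0149 and Irf1 0.0548, and the limit of 50 FPKM gave Gbp2 0.34, Gbp3 0.35, Ddx60 -0.0192, Ifi204 -0.17 and Irf1 0.17. With dexamethasone, quantile scaling gave Ifit1 0.21, the covariate Gbp2 0.88, Irf1 0.39, Usp18 -0.0894 and Ifi44 -0.0184, leaving out the 3 Irf1 0.0285, and the limit Ifit1 0.30 and Gbp2 0.21. The dexamethasone response of Ifih1 in the knockout label was -0.0102 with weights and -0.0461 without the 3 and under the limit, and that of Ifi204 in wild type 0.00924 without the 3. With 1 library left out, Ifi47 ran from -0.15 to 0.30, Ifi204 from -0.0218 to 0.15 and Gbp3 from -0.54 to 0.0648 with vehicle, Ifit1 from -0.16 to 0.0649, Ifi35 from -0.11 to 0.0869 and Irf1 from -0.0868 to 0.0285 with dexamethasone, and the Ifih1 response from -0.0461 to 0.0874.

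Whether replicate numbers pair the libraries is not given in the labels and could not be settled here. Same-numbered libraries of 2 groups correlated between -0.685 and 0.732 in their deviations from the group mean. With the replicate block, 31 and 30 members were lower with dexamethasone, 5 and 21 were higher in the knockout label with vehicle and dexamethasone, and 0 differed in response. Of all genes, that fit called 16.04% and 21.89% lower with dexamethasone, and 2.18% and 10.85% higher in the knockout label. Other scalings moved the share of all calls that were higher in the knockout label with vehicle from 72.1% to 56.5% (median ratio) and 61.6% (quantile), and with dexamethasone in the knockout label from 38.4% to 49.2% and 51.1%. With voom the share that was higher with dexamethasone was 56.1% in wild type, against 39.5%, and 65.6% in the knockout label, where the median of all genes moved from -0.05 to 0.12 in log2, and for the genotype difference 57.3% with vehicle and 67.5% with dexamethasone, against 53.7%. Reads limit 6 members that fell under 20 in some library: Rsad2 (11), Ifit1, Ifi44 and Mx2 (12), Mx1 (13) and Ifit3 (18).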
